A study of Homo sapiens with 12 samples.

Results

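The genes described here are TFRC, which encodes the transferrin receptor, and 9 other genes of cellular iron handling, picked by symbol from the gene tables of CAOV3 cells. The tables listed 19677 genes, and all 10 symbols (TFRC, SLC11A2, TF, FTH1, FTL, NCOA4, ACO1, IREB2, FBXL5 and SLC40A1) were among them. TFRC was chosen because it was lower with ascites than in control cells, so its values in that comparison are a description with no test. CAOV3 is an established human cell line labelled as epithelial, high grade serous, from ovary, with a wild-type genotype and grown in DMEM with 10% fetal bovine serum. RNA was sequenced from 12 libraries in 4 groups of 3. Control cells received DMSO. The ascites group received 10% ascites, the abdominal fluid of ovarian cancer, with DMSO. The bezafibrate group received 200 uM of the fibrate bezafibrate, a PPAR activator, and the combination group received ascites and the drug. The ascites, bezafibrate and combination labels give 16 hours of treatment. The control labels list no time, so a difference in time cannot be told apart from treatment. DMSO is not listed for either group that received bezafibrate, so a drug comparison includes any difference in solvent. The labels do not say whether replicates were grown separately or how many ascites samples were used, so SDs and p-values measure the spread between these libraries, which may be technical.

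Cells take up most of their iron as transferrin (TF) bound to the transferrin receptor, release it in endosomes and move it into the cytosol through the transporter DMT1, encoded by SLC11A2. Spare iron is stored in ferritin, a shell of FTH1 and FTL chains that NCOA4 delivers to lysosomes when iron is needed, and ferroportin, encoded by SLC40A1, exports it. The iron regulatory proteins IRP1 (ACO1) and IRP2 (IREB2) bind hairpins called iron-responsive elements in messenger RNA when iron is scarce. Binding in the 3′ UTR of TFRC stabilises the message, while binding in the 5′ UTR of the ferritin messages blocks translation, which counts of messenger RNA do not measure. FBXL5 directs the degradation of iron regulatory proteins, chiefly IRP2, when iron is plentiful.

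The hairpins are printed because they set TFRC apart from the ferritin and ferroportin genes in position and number. The pattern searched was the loop CAGTGN between stems of 5 bases that pair in full (G with T allowed), with a C just before the first stem. It was read on the sense strand of 1 reference transcript per gene (GENCODE release 29, GRCh38). Each line gives 30 bases, 5′ to 3′, with the 6 loop bases in capitals. All 4 TFRC matches lay in exon 19, in the 3′ UTR, on the minus strand.
TFRC element 1, chr3:196050978-196051007: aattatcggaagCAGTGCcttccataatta
TFRC element 2, chr3:196050574-196050603: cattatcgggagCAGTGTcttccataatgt
TFRC element 3, chr3:196050509-196050538: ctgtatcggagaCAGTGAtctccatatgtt
TFRC element 4, chr3:196050462-196050491: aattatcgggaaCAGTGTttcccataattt
FTH1, 5′ UTR, exon 1, chr11:61967573-61967602, minus strand: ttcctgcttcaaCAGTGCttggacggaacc
FTL, 5′ UTR, exon 1, chr19:48965335-48965364, plus strand: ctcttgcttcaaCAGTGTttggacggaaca
SLC40A1, 5′ UTR, exon 1, chr2:189580660-189580689, minus strand: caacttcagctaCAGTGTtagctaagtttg

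The pattern also occurred once in the long annotated 3′ UTR of TF. It was in none of the listed transcripts of SLC11A2, ACO1, IREB2, FBXL5 and NCOA4, which says only that these letters are not there. Of 19659 protein-coding genes searched, 0.107% held it in the 5′ UTR, 0.534% in the 3′ UTR and 0.0254% (5 genes) at least 2 times in the 3′ UTR.

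**Figure D1:**
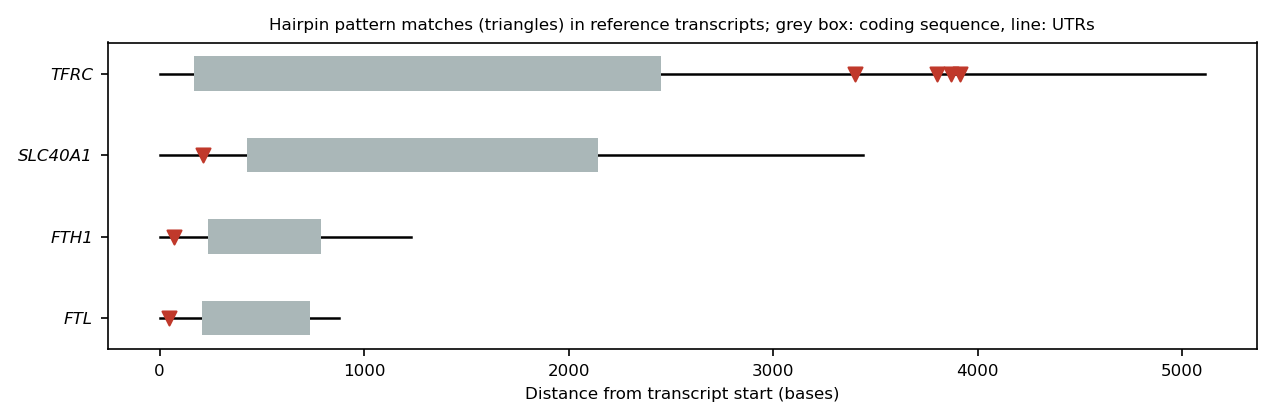
Matches to the hairpin pattern in the reference transcripts of TFRC, SLC40A1, FTH1 and FTL, in bases from the transcript start; grey boxes are coding sequence, lines are UTRs and triangles are matches. TFRC has 4 matches after its coding sequence, and each of the other genes drawn has 1 before it.

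Total counts per library ranged from 11831093 to 18762759. Of the 10 members, 9 passed the filter on low counts and were tested among 12470 genes. On the second principal component, with 9.88% of the variance, combination replicate 3 lay at -22.4 and the other 11 libraries between -4.37 and 9.84, so calls that it changes and the TFRC values are also given without it. Values are CPM, counts scaled to the TMM-adjusted library size. The epithelial genes KRT8, KRT18, KRT7, EPCAM and CDH1 were expressed in all groups, but of the lineage markers SOX17 had 0 counts in all libraries, WT1 and MUC16 had too few counts to test, and PAX8 averaged 0.378 CPM in control. Red cell precursors carry much transferrin receptor, and of 10 red cell markers 5 had 0 counts in all libraries, HBD, AHSP and HEMGN among them. The summed level of the 10 was 0.661 to 1.09 CPM in control, 0.741 to 1.48 with ascites, 0.543 to 0.807 with bezafibrate and 1.01 to 1.41 with both.

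Levels between genes were compared as CPM per kilobase of the reference transcript (mean ± SD, n = 3). In control cells the ferritin chains led, with FTH1 at 2417 ± 72.3 and FTL at 1731 ± 35.4 CPM per kilobase. TFRC followed at 139 ± 0.320 and NCOA4 at 91.4 ± 1.27 CPM per kilobase. IREB2 stood at 21.7 ± 0.838, SLC11A2 at 13.4 ± 0.835, ACO1 at 8.66 ± 0.401 and FBXL5 at 5.27 ± 0.361 CPM per kilobase. The exporter gene SLC40A1 was lowest of the 9, at 0.318 ± 0.0571 CPM per kilobase. Each neighbouring pair in this order was further apart than the SDs of both genes. In the ascites group TFRC stood next to NCOA4, at 93.8 ± 0.858 against 92.1 ± 0.790 CPM per kilobase. In the combination group SLC11A2 at 11.3 ± 0.172 and ACO1 at 11.05 ± 0.426 CPM per kilobase did not differ beyond their spread. FTH1 and FTL have 25 and 16 pseudogenes in GENCODE release 29 and NCOA4 has 3, none of them listed in the tables, so how reads of these copies were counted is unknown and the levels of these genes are uncertain. TF is left out of this order because its annotated 3′ UTR of 18020 bases dominates its length.

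**Figure D2:**
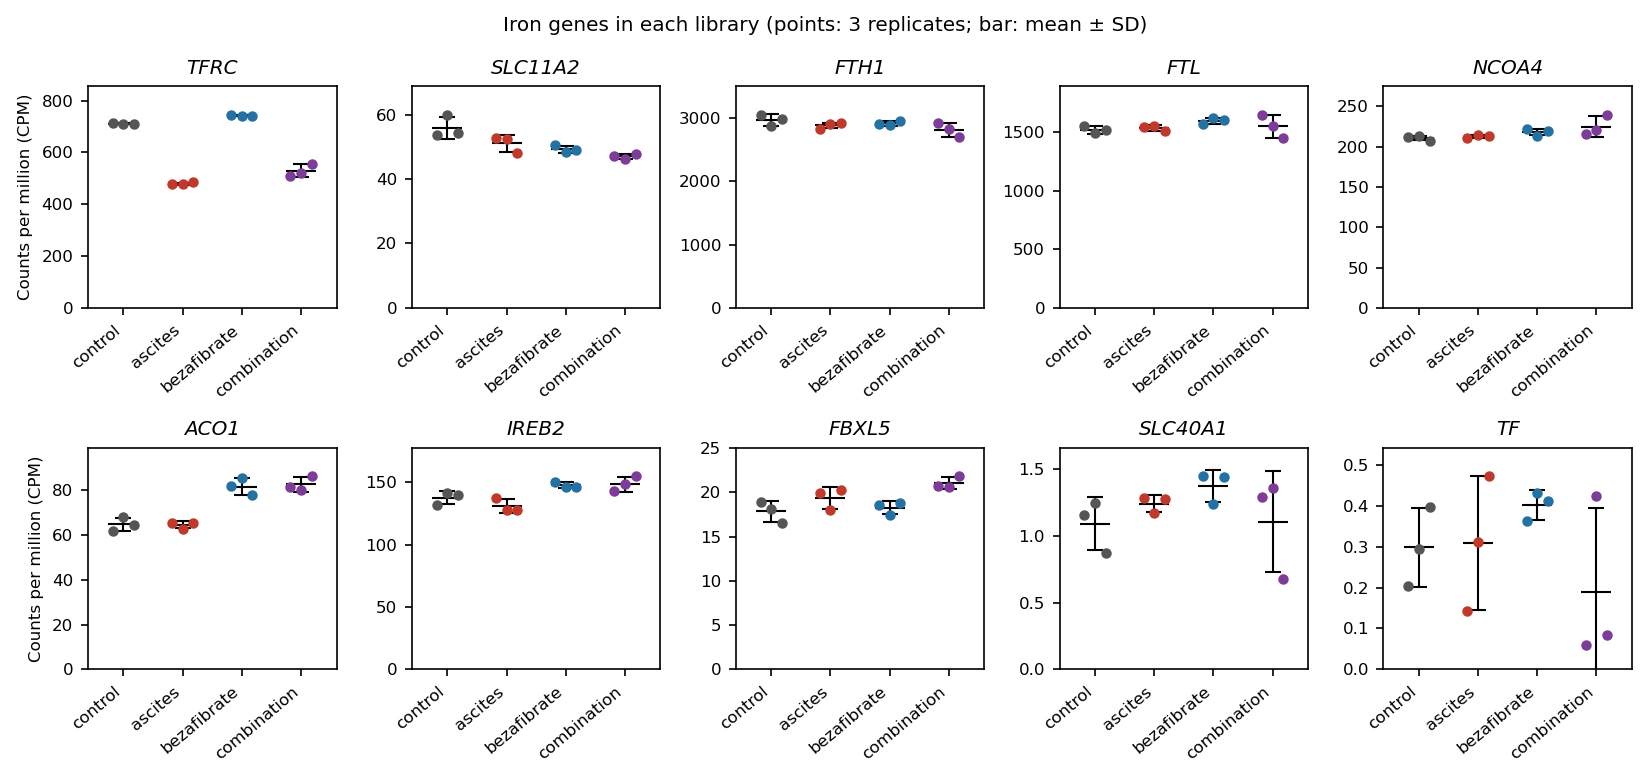
CPM of the 10 iron genes in each of the 12 libraries (points), by group, with the group mean ± SD (n = 3; each panel has its own scale from 0, and the lower SD bar of TF is cut at 0). TFRC lies between 476.7 and 484.3 with ascites and between 709.1 and 712.3 in control, while ACO1 separates the libraries with bezafibrate from those without it.

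TFRC was lower in both groups that received ascites. Its level was 712.3, 710.1 and 709.1 CPM in the control libraries and 476.7, 476.7 and 484.3 CPM in the ascites libraries. With bezafibrate it was 745.0, 741.5 and 740.5 CPM, and with both treatments 509.5, 522.3 and 557.2 CPM. Every library with ascites lay below every library without it. The control and ascites groups, which chose the gene, had means of 710.5 ± 1.63 and 479.2 ± 4.38 CPM (SD, n = 3), and on the log2 scale the difference was -0.57 (SE 0.029). In libraries made from whole cultures, fewer cells with a message and less of it per cell cannot be told apart. In that comparison 1 of 9 members was called, TFRC itself, where 0.0882% of all genes tested were called, every one lower; nothing is read from this count.

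The fall in the presence of the drug was read in libraries outside the comparison that chose the gene. Earlier results of these data were known when members were chosen, so the p-values here are not independent support. TFRC averaged 742.3 ± 2.35 CPM with bezafibrate and 529.7 ± 24.7 CPM with both (SD, n = 3), a ratio of 0.713. The log2 difference was -0.49 (SE 0.029, edgeR quasi-likelihood adjusted p = 1.31e-14), and -0.53 (edgeR adjusted p = 1.75e-25) without combination replicate 3, the library with the highest TFRC of its group. In this comparison 1 of 9 members was called, against 0.128% of all genes tested (0.0401% higher and 0.0882% lower). The groups did not overlap for 3 members, TFRC, SLC11A2 and FBXL5, where 9.27% of all genes tested did not overlap, and the latter 2 genes were not called.

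The other TFRC comparisons share control or ascites libraries with the one that chose the gene for being low with ascites, so their values are a description and support nothing. The combination stood 0.14 above ascites alone on the log2 scale (SE 0.029), and 0.11 above it without combination replicate 3. Against control the combination stood at -0.42, and at -0.46 without that library. Bezafibrate alone stood 0.06 above control (95% interval 0.0057 to 0.121, edgeR adjusted p = 0.132). It also stood at 0.06 without combination replicate 3, where it was called (edgeR adjusted p = 0.0441). The interaction, which asks whether the ascites difference changes with the drug, was 0.08 (95% interval -0.0025 to 0.163), and 0.04 without combination replicate 3. No member was called for the interaction in edgeR or DESeq2, and 0 of 9 had an unadjusted p under 0.05. Of all 12470 genes tested, edgeR called 0 and 445 had an unadjusted p under 0.05, so these counts do not set the members apart.

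**Figure D3:**
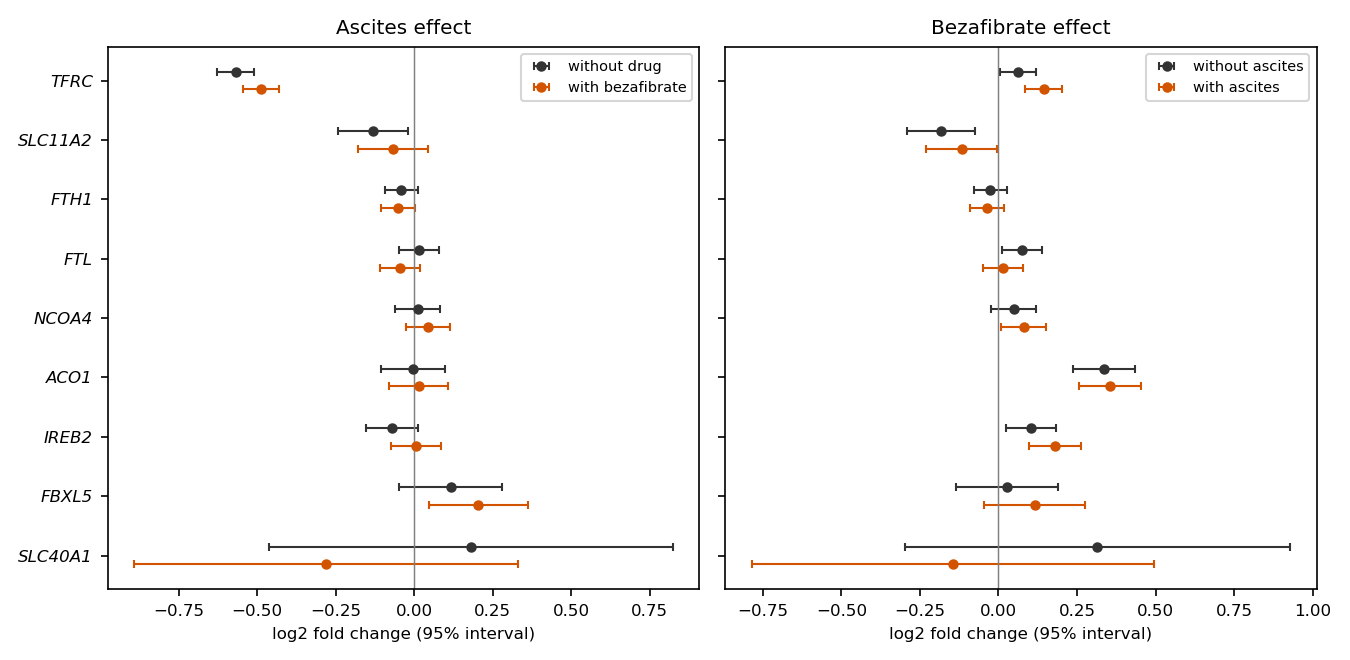
log2 fold changes (x axis, with 95% intervals) of the 9 tested members with ascites (left) and with bezafibrate (right), each without and with the other treatment. TFRC stands at -0.57 and -0.49 with ascites, and ACO1 at 0.34 and 0.35 with bezafibrate.

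TFRC was also lower relative to the other members within the same libraries, a measure that does not depend on library scaling. For each count of FTH1 there were 0.233 to 0.247 counts of TFRC in control libraries, 0.164 to 0.168 with ascites, 0.251 to 0.257 with bezafibrate and 0.175 to 0.206 with both. Between bezafibrate and the combination, the log2 ratio of TFRC to each other tested member was lower without overlap for 7 of 8 members. All 8 ratios share the same TFRC counts, so they restate the fall of TFRC and are not separate results. The differences ranged from -0.69 for FBXL5 to -0.11 for SLC40A1, the one that overlapped, where combination replicate 3 had 8 counts of SLC40A1. Without that library, an alternative chosen after seeing the data, the SLC40A1 difference was -0.47 and 8 of 8 ratios were lower without overlap, by -0.70 to -0.45. With 3 libraries against 3 the two-sided exact permutation test cannot go below p = 0.1, which those 7 reached (0.114 after Benjamini-Hochberg adjustment over the 8). Between control and ascites all 8 ratios were lower without overlap, by -0.77 to -0.44, given as a description.

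SLC11A2, the DMT1 gene that acts next to the receptor in uptake, was called lower with bezafibrate than in control, but not when the drug was added to ascites. It read 53.5, 59.9 and 54.3 CPM in control, 52.6, 52.5 and 48.1 with ascites, 50.5, 48.4 and 48.8 with bezafibrate and 47.1, 46.3 and 47.7 with both. All libraries of the other groups lay below all control libraries. With bezafibrate the log2 difference was -0.18 (SE 0.053, edgeR adjusted p = 0.0129), a call that was lost with DESeq2 (adjusted p = 0.0548), without control replicate 2 (edgeR adjusted p = 0.161) and without bezafibrate replicate 2 (edgeR adjusted p = 0.0694). The combination against control gave -0.25 (SE 0.055, edgeR adjusted p = 0.000893). The combination against ascites gave -0.12 (SE 0.056, edgeR adjusted p = 0.163) and did not pass the test. The drug responses with and without ascites differed by 0.07 (95% interval -0.0916 to 0.222, edgeR adjusted p = 0.999). The log2 fold change with ascites alone was -0.13 (edgeR adjusted p = 0.761) and did not pass the test. TF, the gene of the iron carrier itself, had 1 to 8 counts in each library (12, 13, 20 and 7 counts over the control, ascites, bezafibrate and combination groups) and was not tested.

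Few calls were made among the storage genes. FTH1 read 3051, 2875 and 2984 CPM in control, 2836, 2904 and 2919 with ascites, 2904, 2892 and 2956 with bezafibrate and 2918, 2824 and 2703 with both. The groups overlapped, and for FTH1 only the combination against control was called, at -0.08 on the log2 scale (SE 0.026, edgeR adjusted p = 0.0357). In 8 of 18 alternatives it was no longer called. These were the fit of only the compared groups and the fits without control replicate 1 or 3, ascites replicate 1 or 2, bezafibrate replicate 2, or combination replicate 2 or 3 (edgeR adjusted p from 0.0524 to 0.224). FTL ranged from 1491 to 1553 CPM in control and from 1573 to 1624 CPM with bezafibrate, 0.07 higher on the log2 scale (95% interval 0.0101 to 0.138, edgeR adjusted p = 0.11), and this was called without combination replicate 1 or 3 (edgeR adjusted p = 0.0285 and 0.0121), with no filter on low counts (0.0457) and with only the compared groups (0.0107). The combination against control gave 0.03 for FTL (edgeR adjusted p = 0.606), and 0.08 without combination replicate 3, where it was called (edgeR adjusted p = 0.0258). With ascites alone the 95% interval for the log2 fold change was -0.0949 to 0.012 for FTH1 and -0.0499 to 0.0787 for FTL. NCOA4, the receptor for ferritin breakdown, ranged from 207.5 to 239.4 CPM over all libraries and was called in no comparison of all libraries. Its highest value was in combination replicate 3. Without combination replicate 1 it was called higher in the combination than with ascites (edgeR adjusted p = 0.0305) and than in control (edgeR adjusted p = 0.0152).

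ACO1, the gene of IRP1, was higher with the drug. It read 61.8, 67.8 and 64.4 CPM in control and 65.2, 62.6 and 65.4 with ascites, against 81.6, 85.1 and 77.7 with bezafibrate and 81.5, 79.9 and 86.0 with both. All 6 libraries with the drug lay above all 6 without it. The log2 fold change was 0.34 (SE 0.048, edgeR adjusted p = 8.68e-07) for bezafibrate against control and 0.35 (SE 0.049, edgeR adjusted p = 4.58e-07) for the combination against ascites, and both were called in all 18 alternatives. With ascites alone ACO1 had a log2 fold change that rounded to 0.00 (95% interval -0.107 to 0.0978).

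IREB2, the gene of IRP2, read 131.6, 141.6 and 139.8 CPM in control, 137.5, 127.5 and 127.7 with ascites, 150.4, 146.6 and 146.6 with bezafibrate and 142.7, 148.5 and 154.8 with both. The drug libraries again lay above those without it. The rise passed the test in the presence of ascites (log2 fold change 0.18, SE 0.041, edgeR adjusted p = 0.000991) and not in its absence (0.10, SE 0.040, edgeR adjusted p = 0.0687). The difference between these responses was 0.08 (95% interval -0.0383 to 0.193, edgeR adjusted p = 0.999). The change without ascites was also called without combination replicate 3 or 1 (edgeR adjusted p = 0.0277 and 0.0448) and with only the compared groups (0.0232). For the combination against control it was 0.11 (edgeR adjusted p = 0.0588), and called without combination replicate 1 (0.0185).

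FBXL5 was highest with both treatments. Its values were 18.88, 18.15 and 16.50 CPM in control, 19.86, 17.96 and 20.20 with ascites, 18.57, 17.43 and 18.76 with bezafibrate and 20.70, 20.55 and 21.78 with both. The combination libraries lay above all others. Against control the log2 fold change was 0.23 (SE 0.081, edgeR adjusted p = 0.0405), and 9 of 18 alternatives did not call it, among them DESeq2 (adjusted p = 0.156) and the fits without control replicate 2 or 3 or any 1 combination library (edgeR adjusted p from 0.0573 to 0.201). Against bezafibrate it was 0.20 (edgeR adjusted p = 0.821) and against ascites 0.12 (edgeR adjusted p = 0.373), and neither passed the test. SLC40A1, the gene of the exporter, had 8 to 24 counts per library and 0.675 to 1.45 CPM, and was called in no comparison. Its 95% interval with ascites alone ran from -0.463 to 0.822 on the log2 scale, wide because its counts are few.

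Counted over the 9 tested members, bezafibrate against control called 2 (ACO1 higher and SLC11A2 lower), where 17.6% of all genes tested were called, 10.1% higher and 7.55% lower. The combination against ascites called 3, all higher (TFRC, ACO1 and IREB2), beside 17.8% of all genes, 10.5% higher and 7.29% lower. The combination against control called 5, with ACO1 and FBXL5 higher and TFRC, SLC11A2 and FTH1 lower, beside 18.2% of all genes, 10.3% higher and 7.96% lower. Groups did not overlap for 2 members (TFRC and SLC11A2) with ascites, where 12.7% of all genes did not. The TFRC calls in both combination comparisons share libraries with the one that chose the gene, and nothing is read from them. Groups did not overlap for 6 members each in bezafibrate against control (background 33.5%), the combination against ascites (30.5%) and the combination against control (30.2%). The last of these changes both treatments. TFRC was among the 6 in each, and nothing is read from its part. The median log2 fold change of the 9 was 0.06 with bezafibrate and 0.08 with the drug added to ascites, and it rounded to 0.00 for ascites against control and to -0.04 for the combination against bezafibrate. Over all genes tested these medians rounded to 0.00.

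A wider list of 93 genes of iron uptake, export, storage, sensing, haem, iron-sulphur clusters and receptor trafficking had 79 tested genes. With ascites alone 0 of 79 were called by edgeR or DESeq2, and 7 had an unadjusted p under 0.05, beside 0.0882% called and 749 with an unadjusted p under 0.05 of the 12470 genes tested. With ascites added to the drug 0 of 79 were called by either tool, and 4 had an unadjusted p under 0.05, beside 0.128% called and 597 with an unadjusted p under 0.05 of all genes tested. With so few calls over all genes, 0 of 79 does not set the list apart. None of the 7 listed export and hepcidin genes had enough counts to be tested. Genes that hold the hairpin pattern were counted in the same way. Of 105 genes with it in the 3′ UTR 83 were tested, and TFRC was the 1 gene called with ascites added to the drug. With ascites alone TFRC was also the 1 gene called, by the choice of the gene, and nothing is read from it. The median log2 fold change of the 83 was -0.01 in both comparisons. Of 21 genes with it in the 5′ UTR 15 were tested and 0 were called in either, against the same shares of all genes.

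Some markers of cell type also moved with the drug. CDH1, the gene of the epithelial adhesion protein E-cadherin, averaged 18.6 ± 0.378 CPM in control and 53.3 ± 3.17 CPM with bezafibrate (SD, n = 3). With bezafibrate 3 of 6 tested epithelial markers (CDH1, KRT7 and PAX8) were called higher, beside 10.1% of all genes tested. Of the 6, 4 had a positive log2 fold change. With the drug added to ascites 2 of 6 were called higher, beside 10.5% of all genes. Of 8 fibroblast and mesothelial markers 4 were tested, and COL1A1, COL3A1 and LUM were called lower, by -0.68, -0.71 and -0.17 on the log2 scale. Of all genes tested 7.55% were called lower with bezafibrate. The summed level of the 8 was 193.6 to 198.5 CPM in control, 187.3 to 194.0 with ascites, 168.3 to 178.8 with bezafibrate and 161.9 to 179.0 with both, and 0 of the 8 had 0 counts in all libraries. With ascites alone 0 of the 4 were called. The part of these markers in the drug results was not tested.

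With bezafibrate the wider list had 17 of 79 called, 13 higher and 4 lower, and with the drug added to ascites also 17, 10 higher and 7 lower, beside 17.6% and 17.8% of all genes tested. Over all genes 10.1% were higher and 7.55% lower with bezafibrate, and 10.5% and 7.29% with the drug added to ascites. In the uptake group 1 gene was higher and 2 lower of 10 tested with bezafibrate, and 1 higher and 4 lower with ascites present. SCARA5, a receptor for ferritin, read 5.18, 6.61 and 5.71 CPM in control and 2.71, 2.58 and 3.98 with bezafibrate. The log2 difference was -0.93 (edgeR adjusted p = 0.000123), and -0.99 with ascites present (edgeR adjusted p = 7.97e-05; -1.18 without combination replicate 3). CYBRD1, a ferric reductase, went the other way from 1.295, 1.175 and 1.190 to 2.231, 2.368 and 2.405 CPM, up by 0.93 on the log2 scale (edgeR adjusted p = 0.00665) that DESeq2 did not call (adjusted p = 0.0551). STEAP2, also a metal reductase, fell by 0.44 on the log2 scale when the drug was added to ascites (edgeR adjusted p = 0.000273). STEAP1, of the same family, fell by 0.30 there (edgeR adjusted p = 0.012). The STEAP1 call was lost with DESeq2 (adjusted p = 0.0664) and without combination replicate 3 (edgeR adjusted p = 0.0654).

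In the haem group 5 of 17 tested genes rose with bezafibrate and 0 fell, and with ascites present 4 rose and 0 fell, beside the shares of all genes given above. HMOX1, the haem-degrading oxygenase, read 4.77, 5.22 and 4.12 CPM in control and 9.28, 7.37 and 9.62 with the drug, 0.88 higher on the log2 scale (edgeR adjusted p = 4.27e-05). With ascites present it was 0.45 (edgeR adjusted p = 0.0464), and 11 of 18 alternatives did not call it. These included DESeq2 (adjusted p = 0.147), upper-quartile scaling, the replicate number as a block (edgeR adjusted p = 0.0677) and the fits without any 1 control library, ascites replicate 1 or 3, bezafibrate replicate 1 or combination replicate 3. The value was 0.25 (edgeR adjusted p = 0.347) without ascites replicate 3 and 0.33 (edgeR adjusted p = 0.188) without combination replicate 3. ALAS1, which starts haem synthesis, rose by 0.36 (edgeR adjusted p = 5.93e-08) and by 0.40 with ascites present (edgeR adjusted p = 6.64e-09). BLVRB, a biliverdin reductase, had log2 fold changes of 0.34 and 0.36 (edgeR adjusted p = 0.0102 and 0.00694), with the first lost without control replicate 3 or bezafibrate replicate 1 or 3 (edgeR adjusted p from 0.0511 to 0.0847) and the second without ascites replicate 3 (0.0733). UROS, of haem synthesis, rose by 0.37 with ascites present (edgeR adjusted p = 0.000346), and ABCG2, a transporter that can carry haem, by 0.29 without it (edgeR adjusted p = 0.00844, lost without control replicate 1 or bezafibrate replicate 1, at 0.105 and 0.0993).

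In the group of sensing and TFRC message decay 2 of 10 genes rose with bezafibrate and 0 fell, beside 10.1% higher and 7.55% lower of all genes. With ascites present 2 rose and 1 fell, beside 10.5% and 7.29%. EPAS1, the gene of HIF-2 alpha, went from 224.8, 226.0 and 226.1 to 357.1, 361.9 and 361.3 CPM, up by 0.67 on the log2 scale (edgeR adjusted p = 1.72e-19), and by 0.71 with ascites present (edgeR adjusted p = 5.32e-20). ZC3H12A, the gene of the message-degrading enzyme Regnase-1, rose by 0.49 in both settings (edgeR adjusted p = 0.00179 and 0.00314). Of 27 iron-sulphur and mitochondrial iron genes 3 rose with bezafibrate against control, a share near that of all genes, and 2 rose with ascites present. Without ascites ISCA1, a cluster assembly gene, rose by 0.29 (edgeR adjusted p = 0.000441). The mitochondrial iron importer SLC25A28 rose there by 0.33 (edgeR adjusted p = 0.0209, lost with DESeq2 at 0.103 and without control replicate 1 or bezafibrate replicate 2 at 0.0998 and 0.118). With ascites present the mean of SLC25A28 was not higher with the drug. Its libraries ranged from 11.31 to 13.58 CPM with ascites and from 10.55 to 12.85 with both. ISCA1 ranged from 30.19 to 32.12 CPM with ascites and from 34.72 to 38.64 with both.

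**Figure D4:**
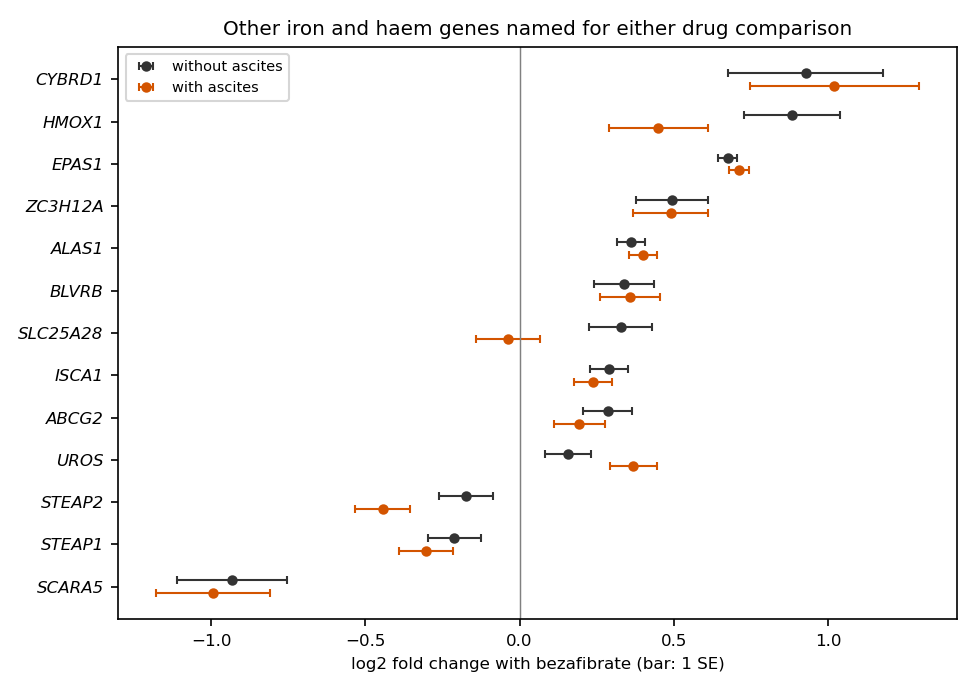
log2 fold changes with bezafibrate (x axis, bars 1 SE) of the genes named from the wider iron list, without ascites (bezafibrate against control) and with it (combination against ascites). SCARA5 is lowest at -0.93 and -0.99, and EPAS1 at 0.67 and 0.71 has the narrowest bars.

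Over all 12 libraries, the 4 profiles nearest to that of TFRC were those of ZNF585A, IDI1, ELFN1 and MVK. Likeness was the root mean square difference of log2 CPM after centring each gene on its own mean, over 11925 genes of at least 1 CPM. The differences were 0.128, 0.156, 0.163 and 0.166, against a median of 0.291 over the genes ranked and 0.271 for a flat profile. IDI1 and MVK encode enzymes of the sterol pathway. ZNF585A and ELFN1 averaged 5.43 and 2.85 CPM. ZNF585A, ELFN1 and MVK were not called with ascites alone (edgeR adjusted p = 0.518, 0.896 and 0.761) or with ascites added to the drug. IDI1 was called lower in both (edgeR adjusted p = 0.0225 and 0.00347). The 4 genes were picked for likeness to TFRC over all 12 libraries. A lower level with ascites therefore follows from the choice, and these values are a description that supports nothing. Control, ascites, bezafibrate and combination means were 81.7, 69.5, 93.4 and 78.9 CPM for IDI1. It was lower with ascites than without it and, unlike TFRC, was not called between the combination and control (edgeR adjusted p = 0.515). ELFN1 and MVK left the nearest 5 in some fits without 1 library. The nearest member was IREB2, at rank 860 (0.251), followed by SLC11A2 at 1171 and FTH1 at 1249, while FBXL5 and SLC40A1 ranked 9869 and 10356.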

How the data were processed

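For each library the authors deposited a table with a whole-number count for each gene. Per the submitters' processing notes, Trimmomatic 0.39, STAR 2.7.9a, RSEM 1.3.3, DESeq2 1.28.1 and GRCh38 were used, with no role given; annotation release and strandedness are not given in the sources used here. Groups came from the labels.

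From the counts, edgeR 4.0.16 (R 4.3.3) kept 12470 of 19677 genes (filterByExpr, minimum count 10, minimum total 15), scaled libraries by TMM and fitted 1 mean per group over 12 libraries with 8 residual degrees of freedom. Contrasts were tested by the robust quasi-likelihood test, and calls were made where the p-value, adjusted by Benjamini-Hochberg over all genes tested, was under 0.05. The procedure was tested on simulated data. DESeq2 1.42.0, other scalings, no filter, a replicate block, only the compared groups and leaving out each library were the alternatives. No 2 replicates were duplicates (chi-square per degree of freedom at least 1.44).

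Members and lists were chosen with earlier results of these data known. All members were named, and from the wider list up to 10 called genes per contrast with the largest changes. The nearest 5 profiles to TFRC were to be named, of which 1 is not reported here. Hairpins were searched in GENCODE release 29 transcripts, which may not be the annotation counted.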

Additional observations from a re-analysis of the deposited data

How the results depend on the processing

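Of 84 results for named genes, 63 kept their call in every alternative, no called value changed sign, and 25 values that were not called changed sign. TFRC in the combination against bezafibrate was called in all alternatives. Genes called for ascites against control numbered 59 with no filter on low counts and 33 with only the compared groups, against 11. For the combination against bezafibrate they numbered 52 and 7, against 16, and for the interaction 36 with no filter and 1 with the replicate block, against 0. Members called for bezafibrate against control numbered 1 with DESeq2 and 5 with only the compared groups, against 2, and for the combination against control 3 with only the compared groups, against 5. TFRC for bezafibrate against control was 0.065 and called with only the compared groups (edgeR adjusted p = 0.0432). The cause was not tested.

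Without 1 library, genes called ranged from 3 (without control replicate 3 or ascites replicate 3) to 24 (without combination replicate 3) for ascites against control, from 9 (without bezafibrate replicate 2) to 28 (without combination replicate 3) for the combination against bezafibrate, and from 0 to 3 for the interaction. Members called ranged from 1 (without control or bezafibrate replicate 2) to 5 (without combination replicate 3; 4 without combination replicate 1) for bezafibrate against control. They ranged from 3 (without control replicate 3 or combination replicate 2) to 6 for the combination against control, and wider iron genes there from 9 (without control replicate 2) to 16. TFRC for bezafibrate against control ranged from 0.061 to 0.066, and was called without combination replicate 3 (edgeR adjusted p = 0.0441).

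Replicate numbers did not pair the libraries: 0 of 18 same-numbered pairs correlated over 0.1 (from -0.135 to 0.0613), and 1 of 12 libraries correlated best with its own number. With the replicate block TFRC was -0.49 (edgeR adjusted p = 3.16e-12) for the combination against bezafibrate, 0.14 for the combination against ascites and 0.06 for bezafibrate against control. Among named genes the block ended the calls of HMOX1 for the combination against ascites (0.45, edgeR adjusted p = 0.0677) and CYBRD1 for the combination against control (0.74, edgeR adjusted p = 0.053). That CYBRD1 call was also lost with DESeq2 (adjusted p = 0.181), no filter on low counts, upper-quartile scaling and only the compared groups. It was lost too without ascites replicate 1 or any 1 control, bezafibrate or combination library (edgeR adjusted p from 0.0527 to 0.121). Depth limits TF and SLC40A1, and 3 libraries per group limit every exact test.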
